A study of Danio rerio with 9 samples.

Results

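Of the 32520 genes in the deposited expression table, 8 endothelial genes of the head vessels were followed across all samples. They were chosen by name as genes of the endothelium, with earlier results of these data known. The set holds 3 receptors of vascular endothelial growth factor (VEGF), kdrl, flt1 and flt4, and the receptor tie1. It also holds the junction proteins cdh5 and pecam1, the secreted protein egfl7 and the transcription factor fli1a. All 8 names were found in the table, where fli1a is listed as FLI1 and pecam1 as pecam1a, and all 8 had a mean FPKM of at least 1.

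Endothelial cells line every blood and lymphatic vessel. In the zebrafish embryo they arise from mesoderm under the control of ETS transcription factors, and the vessels of the head sprout into the brain and eyes when Vegf ligands made by neighbouring tissue bind receptor kinases on the endothelial surface. The cells are then held together at junctions built on VE-cadherin, and in the brain they go on to form the blood-brain barrier.

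The RNA came from heads of Tubingen strain zebrafish at the long-pec stage, cut off at the hindbrain base, with 5 heads pooled per sample and 3 samples in each of 3 groups. CV embryos were raised conventionally, with the microbes of their medium. GF embryos were made germ-free during gastrulation by immersion in the antibiotic gentamicin and a hypochlorite wash, and ZM embryos were made germ-free in the same way and then given a filter-sterilized extract of adult male zebrafish intestines in the medium. GF and CV therefore differ in both microbes and chemical handling, and these cannot be told apart in that comparison. GF and ZM share the handling. Whether samples of a group came from separate clutches was not given in the sources used here, so that p-values measure the spread between these pools.

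Expression is given as FPKM, the fragments of a gene per kilobase of transcript, scaled to the mapped fragments of the sample, so levels may be set side by side between genes. The summed FPKM of all genes lay between 587431 and 705494 per sample, and the reads behind each value are not given in the table. The library CV 2 was closer over the 15904 tested genes to GF 1 and GF 2 (root mean square log2 differences of 0.317 and 0.337) than to CV 1 and CV 3 (0.518 and 0.612), so results against CV are also given without it. CV 1 was also closer to ZM 2 (0.492) than to CV 2 or CV 3 (0.518 and 0.571). GF 3 and ZM 3 were only 0.305 apart. GF 3 was further from GF 1 and GF 2 (0.491 and 0.428), and ZM 3 from ZM 1 and ZM 2 (0.523 and 0.492). Leaving out the CV sample nearest to GF favours a difference from GF, so those results are only descriptions. In whole heads, fewer endothelial cells and less RNA per endothelial cell cannot be told apart.

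The heads held endothelial RNA in every sample. Of 20 further endothelial marker names 19 were found, none was at 0 in any sample, and 15 reached a mean FPKM of 1. Their summed FPKM was 85.2 to 91.1 in CV, 85.5 to 88.8 in GF and 79.4 to 83.8 in ZM. The CV and GF ranges thus overlapped and ZM lay below both. Of these markers tal1 was at 8.70 to 11.0 FPKM in CV, 10.5 to 13.7 in GF and 6.37 to 9.41 in ZM. The sums without tal1 were not computed, so their separation may rest on it. In ZM against GF, 1 of the 15 was lower and 0 higher at an unadjusted p below 0.05 from limma. Over all genes these shares were 3.16% and 2.55%. The median log2 difference of the 15 was 0.04. The most abundant marker was plvapb, a component of the diaphragms of endothelial pores, with a mean FPKM of 23.2.

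In CV heads fli1a had the highest level of the 8 genes, with an FPKM of 16.6 ± 1.92 (SD, n = 3). It was followed by egfl7 (8.21 ± 2.15), cdh5 (6.55 ± 1.13), kdrl (5.0 ± 1.35), tie1 (3.86 ± 0.645), pecam1 (3.61 ± 0.647), flt4 (2.26 ± 0.889) and flt1 (1.68 ± 0.574). Only the step from fli1a to egfl7 was free of overlap between samples. Every other pair of neighbours in this order overlapped. In GF heads the range of fli1a (5.97 to 11.0) took in that of egfl7 (8.11 to 9.37), and kdrl came after pecam1 and tie1, although these 3 overlapped. In ZM heads egfl7 (9.76 ± 1.55, n = 3) and fli1a (9.61 ± 0.865) overlapped at the top, and flt4 and flt1 overlapped at the bottom in both GF and ZM. In the plot of FPKM by sample, CV stood above both other groups without overlap for kdrl, flt4 and fli1a only. Over all genes, 17.7% were lower in GF than in CV without overlap, and 13.3% in ZM. The 8 genes did not split clearly, since flt1 overlapped although its mean was 39.3% lower in GF, against 34.2% for kdrl.

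**Figure D1:**
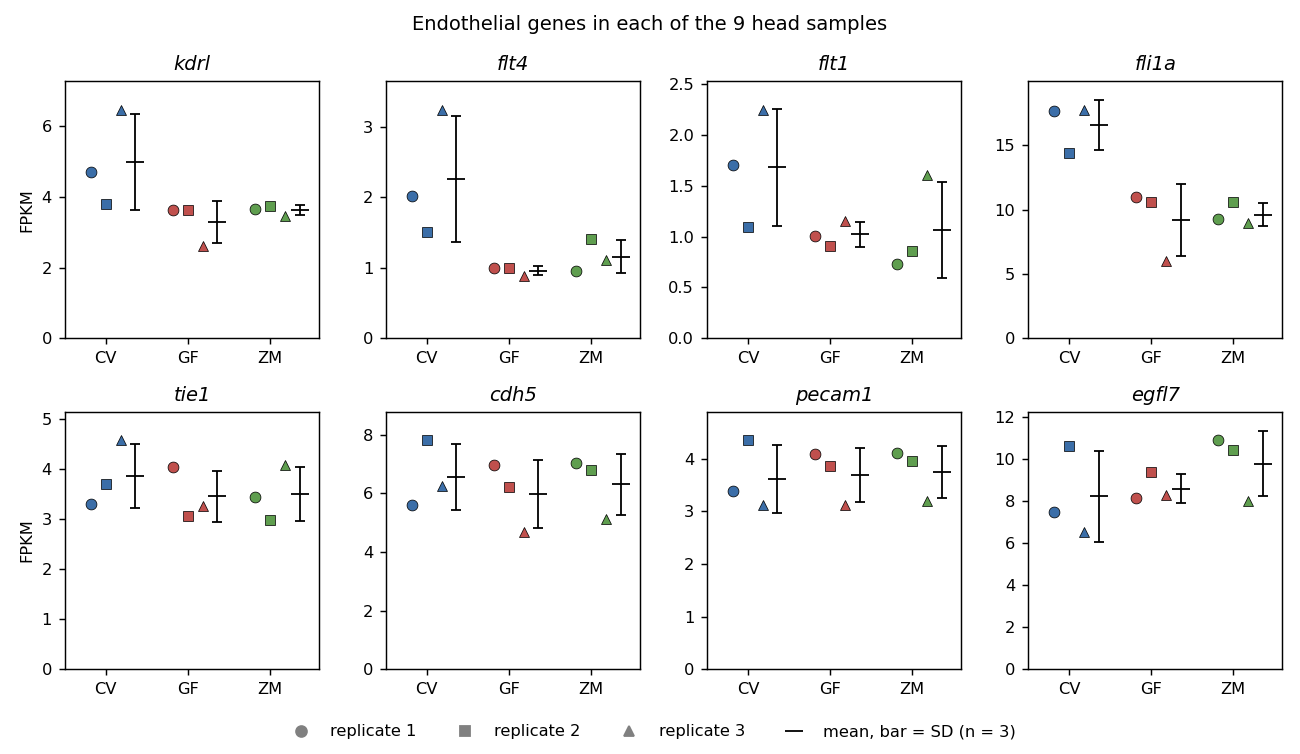
FPKM (linear axis from 0) of the 8 endothelial genes in each head sample. Colours mark the CV, GF and ZM groups, symbols the replicate numbers, and the black bar the mean with its SD (n = 3). For kdrl, flt4 and fli1a all 3 CV samples lie above all 3 GF and all 3 ZM samples, and for the other 5 genes the groups overlap. Over all genes, 17.7% lie lower in GF than in CV without overlap, and 13.3% in ZM.

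On the log2(FPKM + 1) scale fli1a, flt4 and kdrl were furthest below CV in GF. By the percent difference of the mean FPKM the order was flt4, fli1a, flt1 and kdrl. The means of the junction genes cdh5 and pecam1 differed by 8.98% and 2.13%. None of the 8 passed the test between GF and CV at an adjusted p of 0.05 (limma on log2(FPKM + 1), Benjamini-Hochberg over 15904 genes), where 0.00629% of all genes passed. With a pseudocount of 0.1, 5.29% of all genes were lower and 0.107% higher past this threshold, and still 0 of the 8. At a nominal p, that is an unadjusted p from limma below 0.05, 3 of the 8 were lower in GF and 0 were higher, against 18.0% and 4.70% of all genes. The same 3 had GF samples all below the CV samples, against 17.7% of all genes lower and 9.14% higher without overlap. The share of 3 in 8 is thus read against that background. The median log2 difference of the 8 genes was -0.26, that of all genes tested was 0.02, and 25% of all genes lay below -0.32.

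fli1a encodes an ETS factor that acts early in the endothelial lineage, and in the zebrafish head it is also transcribed in the neural crest cells of the pharyngeal arches. Its FPKM was 17.6, 14.4 and 17.8 in CV 1, CV 2 and CV 3, 11.0, 10.6 and 5.97 in GF 1, GF 2 and GF 3, and 9.30, 10.6 and 8.94 in ZM 1, ZM 2 and ZM 3. Every CV sample was above every sample of the other groups, GF 3 was the lowest of the 9, and GF and ZM overlapped. Compared with CV, the mean FPKM was 44.5% lower in GF and 42.0% lower in ZM. The log2(FPKM + 1) difference from CV was -0.82 in GF (standard error 0.21, adjusted p = 0.0562 from limma). It was -0.73 in ZM (standard error 0.21, adjusted p = 0.156 from limma). Neither passed the adjusted threshold. The spread of fli1a in GF, an SD of 0.44 on the log2 scale, was larger than in 91.5% of genes, and rests on GF 3.

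Among 10 tested markers of head cartilage and neural crest, where fli1a is also expressed, 1 was lower and 1 higher in GF than in CV. These calls are at a nominal p, against 18.0% and 4.70% of all genes. The lower one was sox10, a transcription factor of the neural crest, at a log2 difference of -1.40, and the higher one was dlx5a, a patterning factor of the arches, at 0.32. In ZM against CV 4 of the 10 were lower and 0 higher (16.5% and 6.94% of all genes). Their summed FPKM was 220.3 to 237 in CV, 228 to 265 in GF and 179 to 239 in ZM, and none was at 0. Their part in the fli1a values was not tested. The paralogue fli1b was at an FPKM of 2.61, 1.61 and 3.30 in CV, 1.26, 1.40 and 0.899 in GF, and 1.13, 1.47 and 1.61 in ZM. Like fli1a it was below CV in every GF sample, as were 17.7% of all genes. Its log2 difference was -0.66 (standard error 0.21, adjusted p = 0.0918 from limma).

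kdrl encodes the main receptor through which Vegfa drives sprouting of zebrafish vessels. It was at an FPKM of 4.72, 3.81 and 6.47 in CV 1, CV 2 and CV 3, 3.62, 3.63 and 2.61 in GF, and 3.67, 3.74 and 3.46 in ZM. CV 2 was above the highest GF and ZM samples by a small margin only, whereas CV 3 was clear of them. The mean was 34.2% lower in GF than in CV, a log2 difference of -0.47 (standard error 0.20, adjusted p = 0.187 from limma). In ZM it was 27.5% lower than in CV, a log2 difference of -0.35 (standard error 0.20, adjusted p = 0.305). The related receptor kdr, listed at a mean FPKM under 1 and therefore not tested, was at 0.549 to 0.915 in CV, 0.206 to 0.542 in GF and 0.352 to 0.497 in ZM.

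flt4 encodes the receptor of Vegfc, which guides the sprouting of veins and lymphatics, in the zebrafish head among other places. Its FPKM was 2.02, 1.52 and 3.25 in CV 1, CV 2 and CV 3, 1.0, 1.0 and 0.884 in GF, and 0.951, 1.41 and 1.12 in ZM. The 3 GF samples, with a mean of 0.963, lay within a narrow range below all CV samples. The mean was 57.4% lower in GF than in CV, the largest relative difference among the 8 genes, with a log2 difference of -0.70 (standard error 0.21, adjusted p = 0.0740 from limma). In ZM it was 48.8% lower than in CV, with a log2 difference of -0.57 (standard error 0.21, adjusted p = 0.161). Its SD of 0.38 on the log2 scale in CV stood against 0.051 in GF and 0.15 in ZM. The median SD of all genes tested was also larger in CV, at 0.27 against 0.18 in GF and 0.19 in ZM.

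flt1 encodes a receptor that binds Vegfa tightly and, largely as a decoy, limits sprouting. It was at 1.70, 1.1 and 2.25 FPKM in CV 1, CV 2 and CV 3, 1.0, 0.911 and 1.15 in GF, and 0.735, 0.854 and 1.60 in ZM. The mean was 39.3% lower in GF than in CV, but GF 3 lay above CV 2, and ZM 3 stood apart from the other ZM samples within the CV range. The log2 difference was -0.39 in GF against CV (95% confidence interval -0.87 to 0.10) and -0.38 in ZM against CV (-0.86 to 0.10). These values do not show that flt1 differed, nor, with intervals that reach -0.87, that it did not.

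tie1, an orphan receptor kinase that modulates signalling by the angiopoietin receptor Tek, was at an FPKM of 3.31, 3.70 and 4.57 in CV, 4.03, 3.05 and 3.27 in GF, and 3.44, 2.99 and 4.07 in ZM. The 3 groups overlapped, and the log2 difference in GF against CV was -0.12 (95% confidence interval -0.52 to 0.27). Tek itself, encoded by tek, had a mean FPKM under 1 and was not tested. Its FPKM was 1.69, 0.591 and 2.55 in CV, 0.385 to 0.538 in GF and 0.483 to 0.830 in ZM. Every CV sample was thus above every GF sample, CV 2 by a small margin, and CV 2 lay within the ZM range.

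Both junction genes overlapped between all 3 groups. cdh5 encodes VE-cadherin, the adhesion molecule of endothelial junctions, and was at an FPKM of 5.59, 7.80 and 6.26 in CV 1, CV 2 and CV 3, 6.96, 6.23 and 4.69 in GF, and 7.02, 6.78 and 5.11 in ZM. CV 2 was the highest of the 9 samples and GF 3 the lowest. The log2 difference in GF against CV was -0.12 (95% confidence interval -0.55 to 0.31).

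pecam1 encodes a junction protein of the immunoglobulin superfamily, which in mammals is also made by platelets and leukocytes. Its FPKM was 3.39, 4.34 and 3.11 in CV 1, CV 2 and CV 3, 4.09, 3.86 and 3.12 in GF, and 4.10, 3.96 and 3.19 in ZM. The groups covered nearly the same range, and the log2 difference in GF against CV was 0.03 (95% confidence interval -0.36 to 0.42). It was -0.07 when all samples were scaled to the same summed FPKM. Leukocyte marker genes summed to 68.7 to 101 FPKM in CV, 92.0 to 127 in GF and 85.6 to 144 in ZM, with none at 0, and thrombocyte marker genes to 2.12 to 3.56, 2.50 to 2.84 and 2.32 to 3.66, with itga2b and mpl at 0 in some samples. Their part in pecam1 was not tested. The paralogue pecam1b was at 0.467 to 0.835 FPKM in CV, 0.571 to 0.747 in GF and 0.634 to 0.928 in ZM, under the limit for testing.

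egfl7 encodes a protein that endothelial cells secrete into their matrix. It was at 7.49, 10.6 and 6.51 FPKM in CV 1, CV 2 and CV 3, 8.11, 9.37 and 8.26 in GF, and 10.9, 10.4 and 7.99 in ZM. CV 2 lay above all GF samples and within the ZM range, CV 1 and CV 3 below all GF samples, and all groups overlapped. The log2 difference was 0.08 in GF against CV (95% confidence interval -0.35 to 0.51), which became -0.036 when all samples were scaled to the same summed FPKM, and 0.24 in ZM against CV (-0.19 to 0.66).

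**Figure D2:**
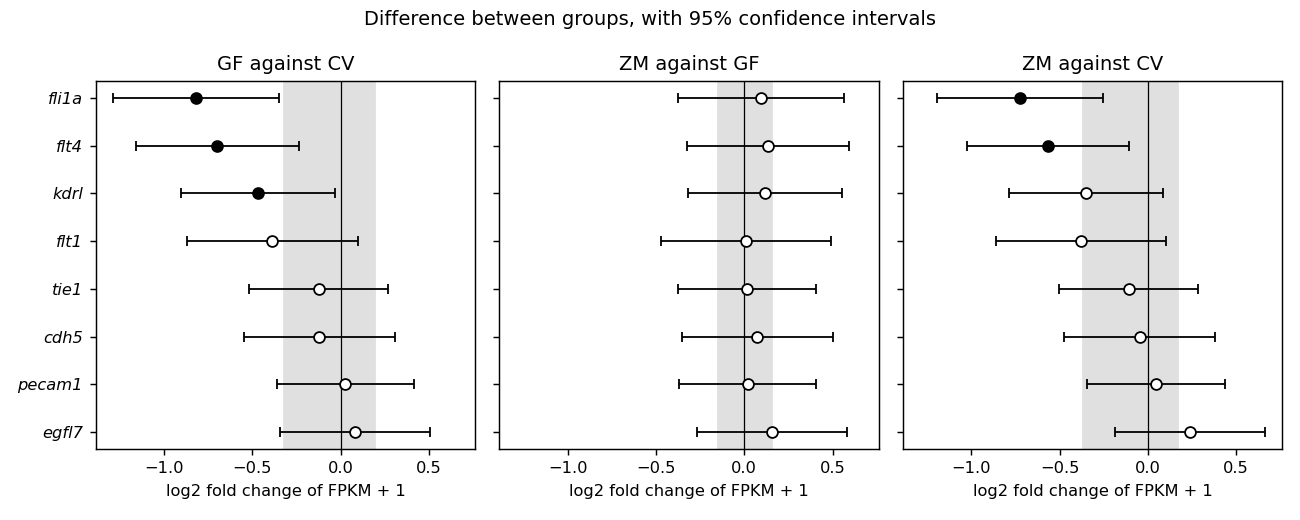
Log2 fold change of FPKM + 1 (horizontal axis) of the 8 genes in each of 3 comparisons, with 95% confidence intervals from limma. Filled points have an unadjusted p below 0.05, none passed the adjusted threshold, and the grey band holds the middle 50% of all 15904 genes. In GF against CV the points run from -0.82 for fli1a to 0.08 for egfl7, and in ZM against GF all 8 lie between 0.01 and 0.16.

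The outcome of the adjusted test changed when CV 2 was left out. This sample was the lowest CV sample for fli1a, kdrl, flt1 and flt4 and the highest for cdh5, pecam1 and egfl7. Without it, flt4 (log2 difference -0.87, adjusted p = 0.0183 from limma) and fli1a (-0.92, adjusted p = 0.0302) were lower in GF than in CV past the adjusted threshold, and kdrl (-0.62, adjusted p = 0.0589) and flt1 (-0.55, adjusted p = 0.121) were lower at a nominal p. In the same fit 13.8% of all genes were lower and 1.85% higher past the adjusted threshold, and 19.7% and 11.4% at a nominal p. Without any other single sample, 0 of the 8 genes passed the adjusted threshold. CV 2 was left out for its nearness to GF, a choice that favours a difference, and only CV 1 and CV 3 remained. Without CV 3 instead, 2 of the 8 were lower and 0 higher at a nominal p, against 12.9% and 1.84% of all genes.

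Within-sample ratios show whether the genes kept the same proportions, since an equal change in all 8 genes would leave them as they were. They are ratios of whole-head RNA, and for fli1a this takes in RNA of neural crest cells. How often ratios of other genes lie apart between groups was not computed, so no share of all genes stands beside them. In FPKM itself fli1a and flt4 were already lower in GF than in CV without overlap, as were 17.7% of all genes. The FPKM ratio of fli1a to cdh5 was 3.15, 1.84 and 2.84 in CV 1, CV 2 and CV 3, 1.58, 1.70 and 1.27 in GF, and 1.32, 1.56 and 1.75 in ZM. All CV ratios were above all GF and ZM ratios, with CV 2 only slightly so. The ratio of flt4 to cdh5 was 0.362, 0.194 and 0.518 in CV, 0.144, 0.161 and 0.188 in GF, and 0.136, 0.208 and 0.218 in ZM. CV was thus above GF in all samples, by a narrow margin for CV 2, and 2 ZM samples were above CV 2. The ratio of kdrl to cdh5 was 0.844, 0.488 and 1.03 in CV and 0.520 to 0.583 in GF, with CV 2 below all GF samples.

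For egfl7 the ratio to cdh5 was 1.34, 1.36 and 1.04 in CV, 1.17, 1.51 and 1.76 in GF, and 1.55, 1.54 and 1.56 in ZM, so that ZM was above CV in all samples and GF overlapped both. The ratio of the 2 junction genes had the narrowest relative range of the ratios computed. The FPKM of pecam1 was between 0.497 and 0.664 of that of cdh5 in all 9 samples, and the GF (0.587 to 0.664) and CV (0.497 to 0.606) ranges overlapped. Among the receptors, flt4 relative to kdrl was 0.398 to 0.501 in CV, 0.276 to 0.338 in GF and 0.259 to 0.377 in ZM, so that CV was clear of both other groups, CV 2 included. flt1 relative to kdrl was 0.441 in GF 3 and 0.464 in ZM 3, and 0.20 to 0.361 in the other 7 samples. The 3 VEGF receptors together were at 0.941, 0.529 and 1.28 times the summed FPKM of cdh5 and pecam1 in CV, at 0.509 to 0.596 times in GF and at 0.482 to 0.745 times in ZM, and CV 2 lay within both other groups. Summed without fli1a, the 7 other genes came to 28.2 to 32.9 FPKM in CV, 24.0 to 28.8 in GF and 26.5 to 30.8 in ZM, ranges that overlapped.

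**Figure D3:**
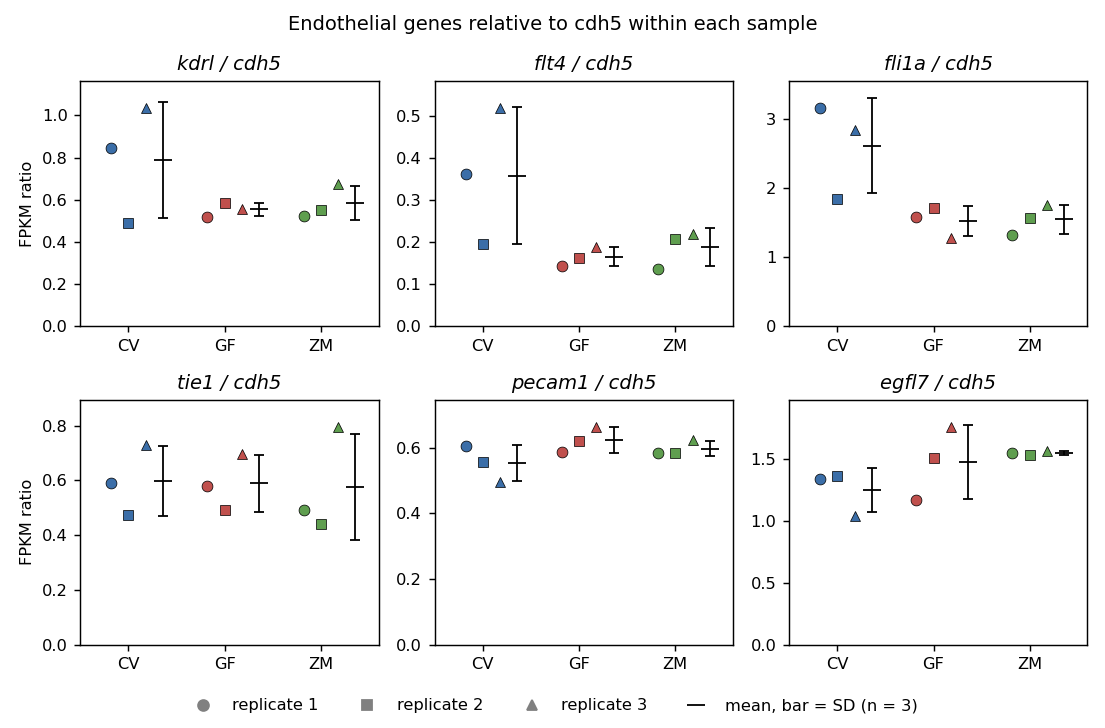
FPKM of 6 endothelial genes divided by the FPKM of cdh5 in the same sample (linear axis from 0), by group, with replicate numbers as symbols and the mean and SD (n = 3) in black. For fli1a and flt4 the CV ratios lie above all GF ratios, with CV 2 the lowest of CV. For kdrl, tie1 and pecam1 the groups overlap, and for egfl7 the ZM ratios lie above the CV ratios. The share of all genes with such ratios was not computed.

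The comparison of ZM with GF asks whether the gut extract altered these genes in embryos without microbes. All 8 had a slightly higher mean in ZM, with log2 differences from 0.01 for flt1 to 0.16 for egfl7. Over all genes, 49.2% had a lower mean in ZM. The ZM and GF samples overlapped for every gene of the 8. None passed the adjusted threshold of 0.1 (adjusted p of 0.945 to 0.999 from limma), where 0.00629% of all genes passed. At a nominal p, 0 of 8 were lower and 0 higher, against 3.16% and 2.55% of all genes, and 0 were without overlap, against 6.17% lower and 10.4% higher. The median log2 difference was 0.08, against 0.00 for all genes tested, and it was -0.0068 without GF 3 and 0.14 without ZM 3. Within pairs of the same replicate number, kdrl, cdh5 and pecam1 were higher in ZM in all 3 pairs and 0 genes were lower in all 3, against 22.8% and 19.0% of all genes. With the replicate number as a block 0 of the 8 passed at a nominal p, but that fit also blocked the CV samples, which were not taken to be paired. The p-values and intervals given here come from the model without pairs, and a paired test of ZM and GF alone was not run. The 95% confidence intervals were -0.37 to 0.57 for fli1a, -0.33 to 0.59 for flt4 and -0.32 to 0.55 for kdrl, so that differences within these bounds were not excluded. For flt1 the sign turned with another pseudocount and with quantile normalization.

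The comparison of ZM with CV uses the same CV samples as that of GF with CV. At an adjusted p of 0.05 from limma 0 of the 8 genes differed, as did 0.00% of all genes. At a nominal p, 2 were lower in ZM, fli1a and flt4, and 0 were higher, against 16.5% and 6.94% of all genes. ZM lay below CV without overlap for fli1a, flt4 and kdrl and above for 0 genes, against 13.3% and 8.51% of all genes. The median log2 difference was -0.23, against -0.05 for all genes. Without CV 2, flt4 (-0.74, adjusted p = 0.0391) and fli1a (-0.82, adjusted p = 0.0472 from limma) passed the adjusted threshold, as did 12.1% of all genes lower and 3.75% higher, and at a nominal p 4 were lower and 1, egfl7, was higher (19.9% and 12.0% of all genes). Without CV 3 instead, 1 was lower and 0 higher at a nominal p (7.44% and 3.11% of all genes).

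The profiles over the 9 samples set the members apart from each other. The profile of each gene was taken as log2(FPKM + 1) minus its mean, and likeness as the root mean square difference between profiles. The gene of the set closest to cdh5 was pecam1, at 0.097, nearer than all but 33 of the genes tested. Seen from pecam1, cdh5 was at rank 159, and pecam1 and egfl7 were 0.13 apart. The measure is not scaled to the size of a profile, so genes that vary little lie close to each other. The profiles of pecam1 and cdh5 had root mean squares of 0.14 and 0.19, against 0.43 for fli1a. Seen from fli1a the closest of the set was kdrl at 0.23, and kdrl and flt4 were 0.15 apart, whereas fli1a and egfl7 were 0.54 apart. Outside the set, the nearest profiles were INTS2, arhgef12b and llgl1 for kdrl, zgc:171599, si:ch211-274k16.6 and TBC1D2B for cdh5, NEURL1B, srcap and HEATR5A for flt4, and DENND2B, crsp7 and brd2b for fli1a, at differences from 0.053 to 0.11.

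Of the ligand genes for these receptors, 2 vegfa rows and vegfc are described, and none differed between GF and CV at a nominal p. The 2 vegfa rows, for the ligand of Kdrl and Flt1, were at mean FPKM of 9.92 and 5.15 in CV, 11.3 and 6.45 in GF and 10.1 and 7.34 in ZM. For the more abundant row, ENSDARG00000034700, every GF sample was above every CV sample, as for 9.14% of all genes. vegfc, for the ligand of Flt4, was at 1.34 to 2.46 FPKM in CV, 1.98 to 2.43 in GF and 1.51 to 1.98 in ZM, and its groups overlapped. The co-receptor nrp2, which binds Vegf ligands beside the kinases, was below CV in every GF sample in both of its rows. Over all genes 17.7% were lower without overlap. The row ENSDARG00000038446 was at 19.0, 11.5 and 28.0 FPKM in CV and 5.36 to 9.68 in GF, a log2 difference of -1.20 (standard error 0.31, adjusted p = 0.0562 from limma), and the row ENSDARG00000096546 had a log2 difference of -0.91 (adjusted p = 0.0569).

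A wider list of vascular genes was read in the same fit, with 125 of 141 names found and 96 tested. None passed the adjusted threshold in GF against CV. At a nominal p, 34 were lower and 4 higher in GF (18.0% and 4.70% of all genes). The median log2 difference was -0.22, and 58 of 96 had a lower mean, against 48.1% of all genes. Of the 96, 5 reached the mean FPKM needed for testing only through their CV values, which favours a lower value in GF, and 4 of these 5 were among the 34. Over all genes 524 did so, and 321 of them were lower at a nominal p. Without CV 2 the counts were 35 and 12 (19.7% and 11.4% of all genes), of which 24 and 3 passed the adjusted threshold (13.8% and 1.85% of all genes). Most of these genes are also expressed by other cells of the head, so their FPKM is that of all head tissue.

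Among 18 tested transcription factors of the endothelium, 9 were lower and 1 higher in GF at a nominal p (18.0% and 4.70% of all genes). The largest differences were in gata2a (5.92 ± 3.60 FPKM in CV and 0.920 ± 0.058 in GF, SD, n = 3), a factor of endothelial and blood stem cells, and in foxc1a (9.15 ± 4.71 and 2.42 ± 0.379), a forkhead factor of the vessel wall and head mesenchyme. The Notch target hey2, which acts in arterial identity, was higher, at 7.32 ± 0.407 in GF against 5.25 ± 0.375 in CV (log2 difference 0.41, adjusted p = 0.106 from limma). Of 15 tested endothelial markers outside the set, 4 were lower (robo4, sox18, fli1b and stab2) and 2 higher (clec14a and gpr182), against the same shares of all genes. All 15 are also in the vascular list, so the same calls are counted there and are not separate results. Their median log2 difference was 0.00. Without CV 2 the counts were 4 and 4 (19.7% and 11.4% of all genes), and the median was 0.13. Of these, 3 and 1 passed the adjusted threshold (13.8% and 1.85% of all genes). With all 9 samples, some endothelial surface genes were thus above CV and others below it at a nominal p only. The adjusted p from limma was 0.0531 for robo4, 0.199 for clec14a and 0.202 for gpr182, and the GF and CV samples of gpr182 overlapped. robo4, a guidance receptor of endothelial cells, was at 5.83, 2.20 and 6.42 FPKM in CV and 1.87, 1.07 and 0.566 in GF, and clec14a, a lectin of the endothelial surface, at 8.45, 10.3 and 8.66 in CV and 11.6, 10.4 and 13.7 in GF.

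Genes of junctions and the endothelial surface had a median log2 difference of 0.01 over 29 tested, with 5 lower and 2 higher at a nominal p. These counts were near the shares of all genes, 18.0% and 4.70%, against which the counts below are also read. The catenin gene ctnnd1, whose product binds cadherins inside the cell, was among the lower, at -1.30. Of 9 genes of arteries and the Notch pathway 5 were lower and 0 higher, among them notch3, a receptor of mural cells, at -1.85 and jag2b, a Notch ligand, at -1.23. Of 8 venous and lymphatic genes 4 were lower and 0 higher, with the ephrin receptors ephb4a at -1.57 and ephb4b at -1.31. Of 13 genes of the brain vessel barrier 4 were lower and 0 higher, with ctnnb1, for the Wnt effector beta-catenin, at -1.81 and reck, a receptor cofactor for Wnt7 in brain vessels, at -1.51. Of 7 mural cell genes 3 were lower and 1 higher, with abcc9, a potassium channel subunit of pericytes, at -0.75 (it reached the limit for testing only through its CV values), foxf2a, a forkhead factor of brain pericytes, at -0.63 and rgs5a, a regulator of G protein signalling, at 0.51. Of 3 genes of the angiopoietin and Tie group, 1 was lower, the ligand gene angpt1, at -0.66. The limit for testing was also reached only through CV by jag1a (arterial), adgra2 (barrier), and esama and exoc3l2a (junction). With abcc9 these are 5 genes, of which 4 were lower at a nominal p.

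**Figure D4:**
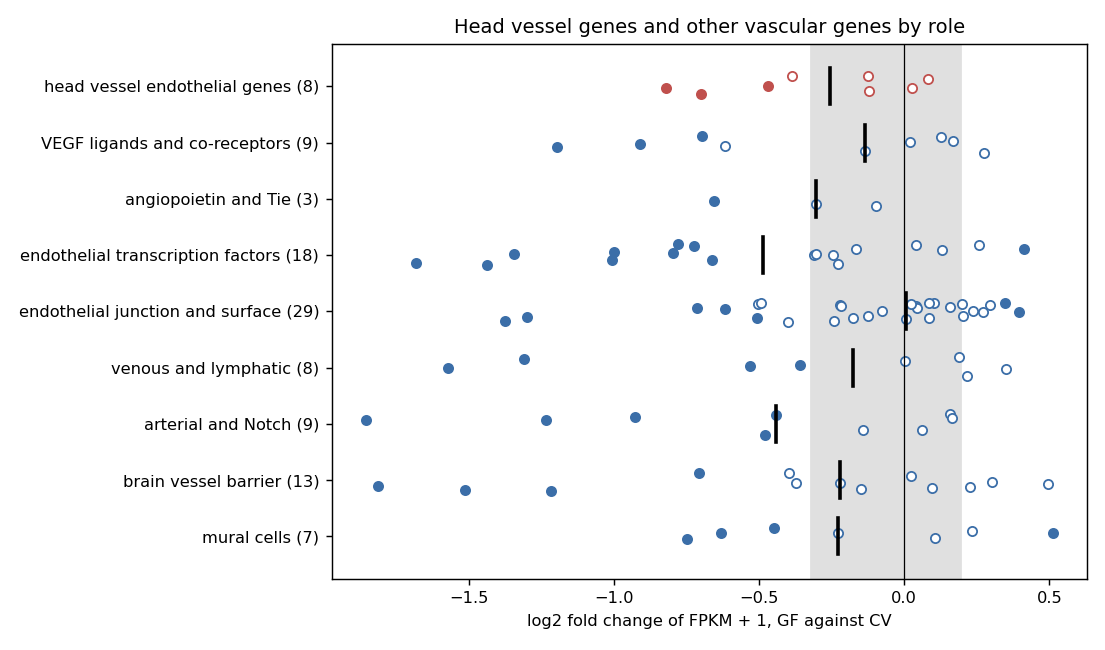
Log2 fold change of FPKM + 1 in GF against CV (horizontal axis) for the 8 head vessel genes (red) and the 96 other vascular genes tested (blue), by role, with the number of genes in brackets. Filled points have an unadjusted p below 0.05, black lines are medians, and the grey band holds the middle 50% of all genes; the medians are -0.26 for the 8 genes, 0.01 for junction and surface genes and -0.49 for transcription factors.

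In ZM against GF, 6 of the 96 vascular genes were lower and 0 higher at a nominal p (3.16% and 2.55% of all genes), and 0 passed the adjusted threshold. They included prox1a, a factor of lymphatic endothelium that is also made in lens and nervous tissue, at a log2 difference of -0.77, and tal1, a factor of blood and endothelial progenitors, at -0.63. A cldn5 row (ENSDARG00000014059), for a tight junction protein of brain vessels, was at -0.66, while rgs5a and foxf2b were at -0.46 and -0.33. In ZM against CV, 29 were lower and 3 higher (16.5% and 6.94% of all genes), with a median of -0.24, and 0 passed the adjusted threshold. Without CV 2 the counts were 34 and 6 (19.9% and 12.0% of all genes), of which 22 and 1 passed it (12.1% and 3.75% of all genes). The 3 higher were gpr182, clec14a and a vegfa row (ENSDARG00000103542), at 0.43, 0.34 and 0.44.

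Some markers of other head tissues also differed between groups at a nominal p, and none passed the adjusted threshold in any comparison. Skin markers summed to 10566 to 10930.2 FPKM in CV, 11866 to 14411 in GF and 11051 to 12327 in ZM, with 4 of 10 higher and 1 lower in GF than in CV at a nominal p. Of 8 neuron markers 3 were lower and 1 higher, with sums of 607 to 786 in CV, 624 to 811 in GF and 486 to 649 in ZM. In ZM against CV, 4 skin markers were higher and 1 lower, and 4 neuron markers were lower and 0 higher. Over all genes, 18.0% were lower and 4.70% higher in GF against CV, 16.5% and 6.94% in ZM against CV, and 3.16% and 2.55% in ZM against GF. Lens markers summed to 1413 to 1844 FPKM in CV, 1255 to 1502 in GF and 645 to 1316 in ZM. Of 4 tested, 2 were lower and 1 higher in GF against CV, 2 were lower in ZM against GF and 3 in ZM against CV. Erythrocyte markers summed to 1452 to 3622 FPKM in CV, with CV 3 the lowest, 2903 to 3106 in GF and 3095 to 3723 in ZM, with 0 of 6 differing at a nominal p in GF or ZM against CV and 1 higher in ZM than in GF. None of the skin, neuron, lens or erythrocyte markers was at 0, and their part in the values of the endothelial genes, and that of the lens in prox1a, was not tested.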

How the data were processed

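Poly(A) RNA of 9 head samples (3 CV, 3 GF, 3 ZM, grouped by their labels) was sequenced with a directional kit. The authors checked reads with FastQC 0.11.8, mapped them to GRCz11 with HISAT2 2.1.0 and deposited gene FPKM estimated with StringTie 1.3.4d. Read counts were not used here. The reads behind a value could not be recovered from the table, because no more than 0.654% of genes with low FPKM had a common ratio (within 0.1%) in any of 36 sample pairs. Such values carry no counting interval.

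The 15904 genes whose mean FPKM was 1 or more were tested on log2(FPKM + 1) with limma 3.58.1 in R 4.3.3 (all 9 samples in a single model, eBayes with trend, no block, two-sided, Benjamini-Hochberg), at an adjusted p of 0.05 against CV and 0.1 for ZM against GF. This scale understates changes of low genes. An exact permutation test of 3 against 3 cannot go below 0.1. The script was tested on simulated data. Names were matched by symbol or synonym (29201 of 32520 genes have a symbol), and where an a or b copy could not be told apart the Ensembl ID is printed. Promoter and protein sequences, and a check of gene length, were not used here.

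The 8 genes, the vascular and marker lists and the rules were chosen with earlier results of these data known. All 8 are named, with up to 2 lower and 2 higher vascular genes per role and comparison by size of change at an unadjusted p under 0.05, the tested endothelial markers, and the 3 nearest profiles of kdrl, cdh5, flt4 and fli1a. The ligand genes, the paralogues kdr and pecam1b, tek, sox10, dlx5a and the vascular genes tested only through CV were named beside them after their values were seen.

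Deviations of same-numbered samples from the means of their groups correlated across genes at 0.41, 0.47 and 0.62 (replicates 1, 2 and 3) between ZM and GF, so the numbers were taken to pair these groups. For GF and CV they were -0.058, 0.15 and 0.32, and for ZM and CV 0.062, 0.061 and 0.49. Because replicates 1 and 2 were low there, the numbers were not taken to pair CV samples. Replicate 3 had the highest of these correlations in each comparison, CV included. Between ZM and GF, different numbers also correlated for ZM 1 with GF 2 (0.29) and ZM 2 with GF 1 (0.11), and the rest were negative. Deviations cancel within a group, so a likeness of the samples numbered 3 also raises the correlations among replicates 1 and 2. The pairing of replicates 1 and 2 is therefore uncertain. Whether the samples numbered 3 shared a batch or clutch was not tested. Alternatives were another pseudocount, 2 filters, 3 rescalings, only the 2 groups compared, no trend, the replicate number as a block, and each sample left out in turn. The directions within pairs, the list counts without CV 2 and the count of genes tested only through CV were added after the data were seen.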

Additional observations from a re-analysis of the deposited data

How the results depend on the processing

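In GF against CV, fli1a (-0.96 to -0.57, adjusted p 0.0302 to 0.181 from limma) and flt4 (-1.09 to -0.48, adjusted p 0.0183 to 0.226) kept an unadjusted p under 0.05 under every alternative in which they were tested, and kdrl lost it in 8 of 17. With the replicate block, the counts at an unadjusted p were 2 in GF against CV, where kdrl was lost, 0 in ZM against GF and 2 in ZM against CV, and it changed no other call. At a mean FPKM of at least 5 only 3 of the 8 genes were tested, 1 of them was lower at an unadjusted p in GF and 1 in ZM against CV, and the ZM against CV median was -0.047. Quantile normalization gave medians of -0.056 in GF and -0.015 in ZM against CV, with 1 gene at an unadjusted p in ZM. It moved the median of all genes in GF against CV from 0.02 to 0.12, and an equal sum moved it to -0.088 (in ZM against CV from -0.05 to -0.16). Relative to all genes, the median of the 8 in GF was -0.27 as reported, -0.18 with quantile normalization and -0.26 with equal sums. Of all genes at an unadjusted p in GF against CV, 79.3% were lower as reported, 65.3% after median-of-ratios rescaling, 94.9% with equal sums and 54.3% with quantile normalization.

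Signs turned for genes near 0. In GF against CV, equal sums gave pecam1 -0.0741 and egfl7 -0.0358, and quantile normalization tie1 0.0981 and cdh5 0.0534. In ZM against GF, flt1 was -0.0136 with a pseudocount of 0.1 and -0.0051 with quantile normalization. In ZM against CV, cdh5 was 0.0393 after median-of-ratios rescaling and 0.13 with quantile normalization, tie1 0.12 with quantile normalization and pecam1 -0.0682 with equal sums. The cause was not tested.

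With each sample left out in turn, the count past the adjusted threshold ran from 0 to 2 in GF and in ZM against CV, with 2 only without CV 2, and the count at an unadjusted p from 2 to 4 and from 1 to 5. The ranges in GF against CV were -0.0518 to 0.14 for pecam1, -0.0541 to 0.26 for egfl7 and -0.22 to 0.0179 for cdh5. In ZM against GF they were -0.0015 to 0.18 for kdrl, -0.17 to 0.12 for flt1, -0.0746 to 0.11 for tie1, -0.0651 to 0.20 for cdh5, -0.0727 to 0.11 for pecam1 and -0.16 to 0.23 for fli1a. In ZM against CV they were -0.14 to 0.0761 for cdh5 and -0.0331 to 0.16 for pecam1. flt1 and flt4, at an FPKM near 1 in GF, have the lowest levels.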
